A study of Mus musculus with 18 samples.

Results

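Eph receptors and ephrins were examined in dorsal root ganglia of mice with and without a bone myeloma. The 10 genes were taken by symbol, with no cut on their values, though earlier results of these data were known. They came from the 48529 genes to which the transcripts of the deposited quantifications could be linked. They comprise 6 receptors (Epha3, Epha4, Epha5, Epha7, Ephb1 and Ephb2) and 4 ephrins (Efna5, Efnb1, Efnb2 and Efnb3). Dorsal root ganglia hold the cell bodies of sensory neurons with their satellite glia, Schwann cells, vessels, connective tissue and resident macrophages. The tissue was whole lumbar ganglia L2, L3 and L4 of the operated side, so the values are sums over these cell types. All 18 animals were male C57BL/KaLwRijHsd mice of 5 to 7 weeks, and ganglia were taken on post-surgical day 24. Cells of the mouse myeloma line 5TGM1-GFP, which carries a fluorescent marker, had been placed in the femur of 9 mice (MM). The other 9 (SHAM) were given vehicle instead. The series design gives 1 library per mouse, written here as MM1 to MM9 and SHAM1 to SHAM9. The 5TGM1 line comes from this strain, and MM describes this 1 line only.

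Eph receptors are receptor tyrosine kinases that bind ephrins on the surface of neighbouring cells. A-type ephrins are held in the membrane by a lipid anchor and B-type ephrins span it, and both can signal back into the cell that carries them while the receptor signals forward. In the nervous system the family is known for axon repulsion and sorting, and in sensory and spinal circuits EphB receptors with ephrin-B ligands are known for a role in pain processing.

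Libraries held between 19014161 and 21538262 estimated reads linked to a gene. Levels of 1 gene across libraries are given as CPM (estimated reads scaled to a common library size, with TMM factors), and a gene was called when the Benjamini-Hochberg adjusted p of edgeR's robust quasi-likelihood test over 15774 genes was below 0.05. MM5, MM8 and MM9 stood apart from the other MM libraries in the tumour cell values given below, so results that rest on them are given with and without them. Ighg2b, the IgG2b heavy chain gene, ranged from 11.67 to 4374 CPM in MM and from 0.1003 to 16.37 CPM in SHAM. The library labelled MM2 had the lowest MM value and lay below SHAM5 and SHAM9. Of the markers for cells of the labelled tissue, all 12 sensory neuron, 8 satellite glia and 9 Schwann cell markers were measured. None was at 0 in every library. The same held for the 7 skeletal muscle markers, so this does not check the identity of the tissue.

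Epha7 was the member that differed between the groups, and its transcripts are shown first because they encode different receptors. The full-length transcript encodes the receptor with its kinase domain (998 codons). The truncated transcript shares the first 599 codons, then runs into sequence of its own and stops, which gives 610 codons and no kinase domain. Such truncated forms of EphA7 are known to modify the action of the full receptor. Another form, called the shortened transcript here (994 codons), lacks 12 bases at the same place. The stretches below start at coding base 1769, counted from 1 at the A of the start codon, and are read from GENCODE transcripts. Capitals mark the bases of the full-length transcript that the shortened one lacks, and the bases that follow the parting point in the truncated transcript up to its stop codon.
Epha7, full-length: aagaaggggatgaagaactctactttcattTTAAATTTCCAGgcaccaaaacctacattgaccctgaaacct
Epha7, truncated: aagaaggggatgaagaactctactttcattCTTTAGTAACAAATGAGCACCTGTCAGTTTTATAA
Epha7, shortened: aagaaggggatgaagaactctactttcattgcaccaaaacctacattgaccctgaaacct

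Epha7, an A-type receptor known for repelling axons that meet ephrin-A ligands, was higher in MM. It was at 11.73, 8.078, 11.39, 8.682, 31.67, 9.837, 8.474, 22.52 and 61.26 CPM in MM1 to MM9. In SHAM1 to SHAM9 it was at 5.81, 5.819, 6.527, 5.611, 7.03, 5.893, 4.799, 4.083 and 6.612 CPM. In CPM the groups did not overlap: the lowest MM library, MM2, lay above the highest SHAM library, SHAM5. This pattern of all 9 MM libraries above all 9 SHAM libraries in CPM held for 19 of the 15774 genes (0.12%). In TPM, which divides by transcript length, the groups overlapped, with Epha7 at 3.242 in MM4 and 3.392 in SHAM5. MM9, MM5 and MM8 were the highest, and the other 6 MM libraries lay between 8.078 and 11.73 CPM. Means were 19.3 ± 17.6 CPM in MM against 5.80 ± 0.915 CPM for SHAM (SD, n = 9 each). The log2 fold change was 1.73 ± 0.37 (SE; 95% interval 0.96 to 2.505), a 3.32-fold rise, with an adjusted p of 0.0242 by edgeR.

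The size of that rise depended on 3 libraries and its direction did not. Without MM5, MM8 and MM9 the log2 fold change of Epha7 was 0.74 ± 0.12 (SE) with an adjusted p of 0.0113 by edgeR, a call shared with 0.331% of the 15995 genes then tested. The call itself was close to the threshold. It was lost when MM5 (adjusted p = 0.0568), MM8 (0.052), SHAM1 (0.0517), SHAM7 (0.0508) or SHAM8 (0.0525) was left out of the edgeR fit, and the log2 fold change fell to 1.28 without MM9. SHAM8 and SHAM7, which had the lowest Epha7, had the highest mean log2 CPM of the skeletal muscle list of all libraries (10.55 and 8.244). No marker of that list of 7 passed, in edgeR or DESeq2, or at an unadjusted p below 0.05 in edgeR, and its median log2 difference was -2.64. In SHAM, Epha7 and the muscle list had r -0.743 (Spearman -0.517), and r -0.0209 without the 2 farthest libraries. Without SHAM7 and SHAM8 together Epha7 was at 1.63 with an adjusted p of 0.108 by edgeR; the part of muscle tissue was not tested. An exact permutation test of the mean log2 CPM of Epha7, two-sided over all 48620 assignments of the libraries, gave p = 4.11e-05, the smallest it can give, and an adjusted p of 0.0282. That p was fixed once every MM library lay above every SHAM library, so it restates the lack of overlap and is no separate support.

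**Figure D1:**
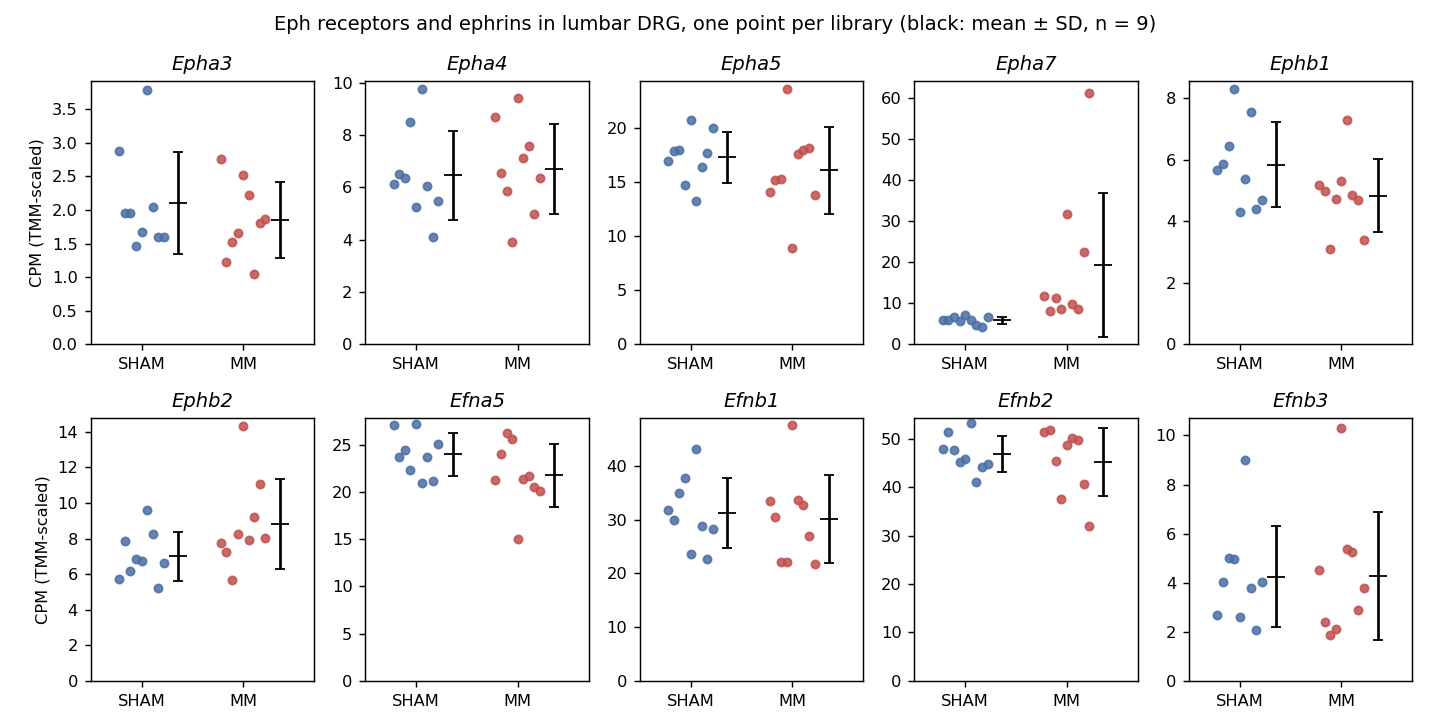
CPM of the 10 members, 1 panel a gene on linear axes from 0, with 1 point per library and black bars for the mean ± SD of each group (n = 9). Epha7 is the member whose 9 MM points (8.078 to 61.26 CPM) lie above all 9 SHAM points (4.083 to 7.03 CPM), while the groups of the other 9 members overlap.

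Markers of myeloma cells, macrophages and cell division were also higher in MM as a group, though not in every MM library. Of the 8 plasma and myeloma cell markers tested, 7 rose, with a median log2 fold change of 4.76, and the summed CPM of the list ran from 135.6 to 8438 in MM and from 87.59 to 138.6 in SHAM. Of 9 macrophage markers 5 rose (median 1.34), and of 8 cell cycle genes 8 rose (median 3.12). The 6 erythroid markers fell (median -2.78). No gene of these lists was at 0 in every library. By mean log2 CPM, the macrophage list lay within the SHAM range (2.219 to 3.349) in MM1, MM2, MM3, MM4 and MM6 (2.636 to 3.325). MM2 lay within the SHAM range for the plasma and myeloma list (1.94) and the cell cycle list (0.319) too, although its Epha7 was above every SHAM library. Among all genes tested 2.75% rose, 0.241% fell and the median log2 fold change was -0.004187. In bulk tissue, more cells of a type and more RNA per cell cannot be told apart, nor can fewer cells and less RNA per cell.

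Epha7 was high where Ighg2b was high. MM9, MM8 and MM5 had 4374, 2334 and 2197 CPM of Ighg2b, and no other MM library exceeded 389.9 CPM. The excess of Epha7 over the SHAM mean was 55.5 CPM in MM9, 25.9 CPM in MM5 and 16.7 CPM in MM8. Per 1000 CPM of Ighg2b it came to 12.7, 11.8 and 7.17 CPM. In the 5 further MM libraries whose Ighg2b exceeded every SHAM value it was 16.8 (MM1), 14.4 (MM3), 7.40 (MM4), 15.97 (MM6) and 25.7 CPM (MM7). Over these 8 libraries the ratio ranged 3.59-fold while Ighg2b itself ranged 42.1-fold. Over the 432 genes besides Ighg2b that rose, the median range of this ratio was 7.53-fold, and 100 had a narrower range than Epha7. MM2 did not follow: with 11.67 CPM of Ighg2b, less than SHAM5 and SHAM9 had, its Epha7 excess was 2.28 CPM, or 195.3 per 1000 CPM. The part of myeloma cells or other immune cells in the rise of Epha7 was not tested.

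**Figure D2:**
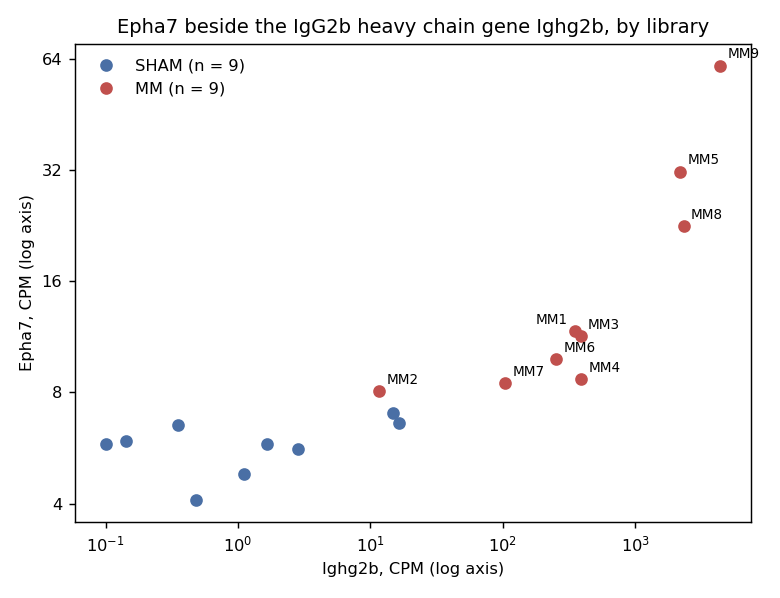
Epha7 CPM against Ighg2b CPM, both on log axes, 1 point per library with MM libraries named. MM9, MM5 and MM8 are highest on both axes, and MM2 has SHAM-like Ighg2b (11.67 CPM) with Epha7 (8.078 CPM) above every SHAM library.

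Across the 9 MM libraries, Epha7 followed the mean log2 CPM of the cell cycle list (Pearson r 0.945, Spearman correlation 0.9), the macrophage list (0.886 and 0.733) and the plasma and myeloma list (0.88 and 0.9). With the 2 libraries farthest from the median left out, r was 0.926, 0.833 and 0.842. In the 9 SHAM libraries the same r were 0.102, 0.121 and 0.486. Over the 6 MM libraries besides MM5, MM8 and MM9, r was 0.75, 0.234 and 0.639 (Spearman 0.714, 0.143 and 0.714), so the relation with the macrophage list rests on those 3 libraries. With the sensory neuron list Epha7 ran the other way in MM (Pearson -0.762, Spearman -0.8), but over the 6 libraries r was 0.023 and the Spearman correlation -0.371. These are descriptions over libraries that share their RNA composition, and no p is given.

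Most of the added Epha7 reads were assigned to the full-length transcript. The full-length form was between 5.97 and 49.73 CPM in MM and between 2.974 and 5.348 CPM in SHAM, again without overlap, a pattern seen in 22 of 28596 transcripts (0.0769%). Its means were 15.5 ± 14.2 CPM and 4.37 ± 0.868 CPM (SD, n = 9 each). The truncated form was at 0.879 ± 0.518 CPM in MM (0.4116 to 1.955) and 1.002 ± 0.305 CPM in SHAM (0.5425 to 1.536), so the groups overlapped. Its share of Epha7 reads was 8.14 ± 7.91% in MM and 17.0 ± 3.21% in SHAM. MM9 had the lowest share (0.7856%), and MM2 (24.19%) had a share above every SHAM library. The shortened form was at 2.26 ± 3.33 CPM in MM against 0.301 ± 0.44 CPM in SHAM and was listed at 0 in 8 libraries. Estimates of such similar transcripts share reads, and the error of that assignment is not in these values.

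A test of transcript use did not pass for Epha7. With 2 of its transcripts tested, edgeR gave an adjusted p of 0.1189 over 8300 genes, of which 51 passed (0.614%). Leaving out MM2 brought the adjusted p to 0.0396, and without MM5, MM8 and MM9 it was 0.497 by the same edgeR test. Epha5 (5 transcripts) and Ephb2 (3 transcripts) had adjusted p of 0.9999 each in edgeR. The other 7 members had no second transcript that could be tested.

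**Figure D3:**
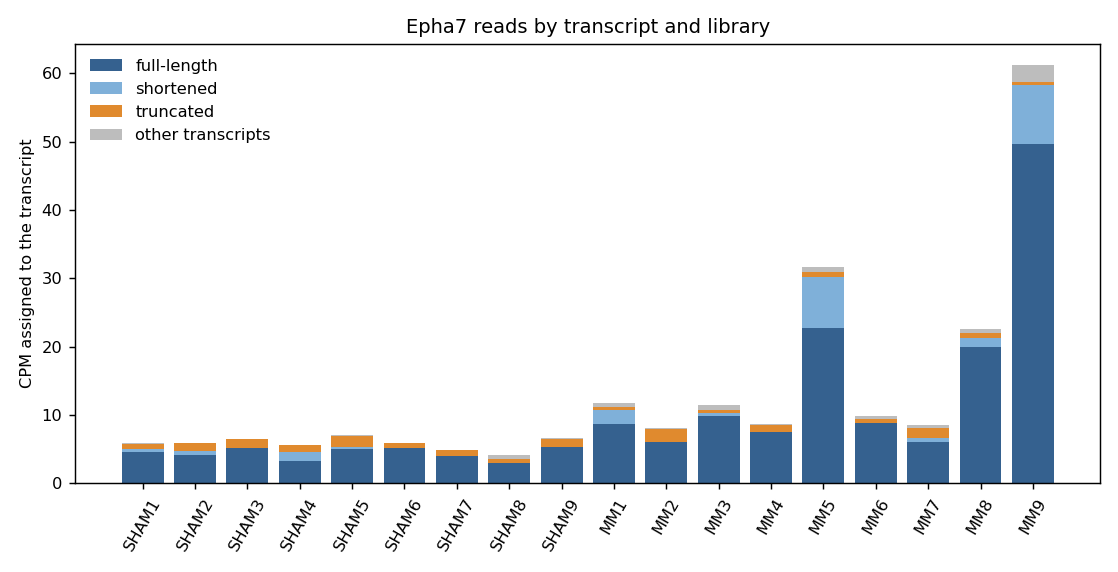
Estimated reads of the Epha7 transcripts in CPM by library, as stacked bars. The full-length form separates the groups (5.97 CPM or more in MM, 5.348 CPM or less in SHAM), whereas the truncated form overlaps between them.

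The remaining receptors gave 0 calls among 5. Ephb2, a B-type receptor known from nociceptive circuits, was nearest. It was at 7.736, 7.241, 5.673, 8.243, 14.34, 7.898, 9.24, 11.06 and 8.023 CPM in MM1 to MM9, and at 5.703, 7.876, 6.175, 6.831, 6.75, 9.629, 8.249, 5.197 and 6.612 CPM in SHAM1 to SHAM9. MM5 and MM8 were above every SHAM library, and the groups overlapped otherwise. The log2 difference was 0.33 ± 0.15 (SE; 95% interval 0.01 to 0.66) with an unadjusted p of 0.0433 and an adjusted p of 0.209 by edgeR, and 8 of 9 MM libraries exceeded the SHAM median. At an unadjusted p below 0.05, 13.9% of all genes were higher and 8.6% lower. Without MM5, MM8 and MM9 the log2 difference of Ephb2 was 0.13.

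Ephb1, a B-type receptor also known from pain studies in the spinal cord, had values of 5.174, 4.975, 3.099, 4.731, 5.309, 7.283, 4.835, 4.7 and 3.381 CPM in MM1 to MM9. In SHAM1 to SHAM9 they were 5.65, 5.869, 6.426, 8.294, 4.283, 5.366, 7.549, 4.402 and 4.7 CPM. The groups overlapped, and MM6 alone, 1 of 9, exceeded the SHAM median. Its log2 difference was -0.27 ± 0.16 (SE; 95% interval -0.61 to 0.06) with an adjusted p of 0.316 by edgeR.

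The 3 other A-type receptors of the list gave no call either. Epha5, the most abundant in SHAM of the 6 receptors listed above, was at 16.1 ± 4.02 CPM in MM (8.895 to 23.61) and 17.3 ± 2.35 CPM in SHAM (13.27 to 20.76), with a log2 difference of -0.11 (95% interval -0.39 to 0.18). Its lowest value was in MM5 and its highest in MM4. Epha4, which binds both A-type and B-type ephrins, was at 6.72 ± 1.72 CPM in MM against 6.46 ± 1.71 CPM in SHAM, a log2 difference of 0.06 (-0.30 to 0.41) that turned negative with transcript length offsets (-0.05). Epha3, an A-type receptor of low level here, was at 1.85 ± 0.567 and 2.11 ± 0.757 CPM, a log2 difference of -0.19 (-0.63 to 0.26). Adjusted p were 0.66, 0.868 and 0.618 by edgeR, and the intervals leave room for changes of the sizes they span.

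The 4 ephrins gave 0 calls. Efna5, the lipid-anchored ligand of EphA receptors, was at 21.29, 23.99, 26.22, 25.61, 15, 21.33, 21.73, 20.51 and 20.13 CPM in MM1 to MM9. In SHAM1 to SHAM9 it was at 27.02, 23.73, 24.4, 22.3, 27.23, 20.98, 23.7, 21.16 and 25.05 CPM. MM5 was the lowest, and the groups overlapped. The log2 difference was -0.14 ± 0.09 (SE; 95% interval -0.32 to 0.04) with an adjusted p of 0.35 by edgeR, and without MM5, MM8 and MM9 it was -0.04.

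The transmembrane ligands were spread over libraries more than between groups. Efnb2, known from arteries and from neurons and glia, was at 45.3 ± 7.01 CPM in MM (32.04 to 51.77) and 46.8 ± 3.72 CPM in SHAM (41.15 to 53.27). MM9 and MM4 were the lowest. Its log2 difference was -0.05 (95% interval -0.22 to 0.13). Efnb1 was at 30.1 ± 8.25 CPM in MM against 31.2 ± 6.55 CPM in SHAM, with a log2 difference of -0.05 (-0.37 to 0.27). Its highest libraries were MM5 at 47.64 CPM and SHAM6 at 43.12 CPM, 1 in each group. Efnb3 was at 4.28 ± 2.62 and 4.24 ± 2.06 CPM, with a log2 difference of 0.01 (-0.67 to 0.69), and MM5 at 10.29 CPM and SHAM6 at 9.006 CPM again led. Adjusted p were 0.757, 0.861 and 0.987 by edgeR.

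Of the 10 members, all of which passed the filter on low counts, 1 rose and 0 fell; of all genes tested 2.75% rose and 0.241% fell (2.99% in either direction). At an unadjusted p below 0.05 in edgeR, 2 were higher and 0 lower, and DESeq2 called Epha7 and no other member (it called 5.99% of genes higher). No member had all MM libraries below all SHAM libraries, as 0.0254% of genes did. The median log2 difference of the members was -0.05, beside -0.004187 over all genes.

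**Figure D4:**
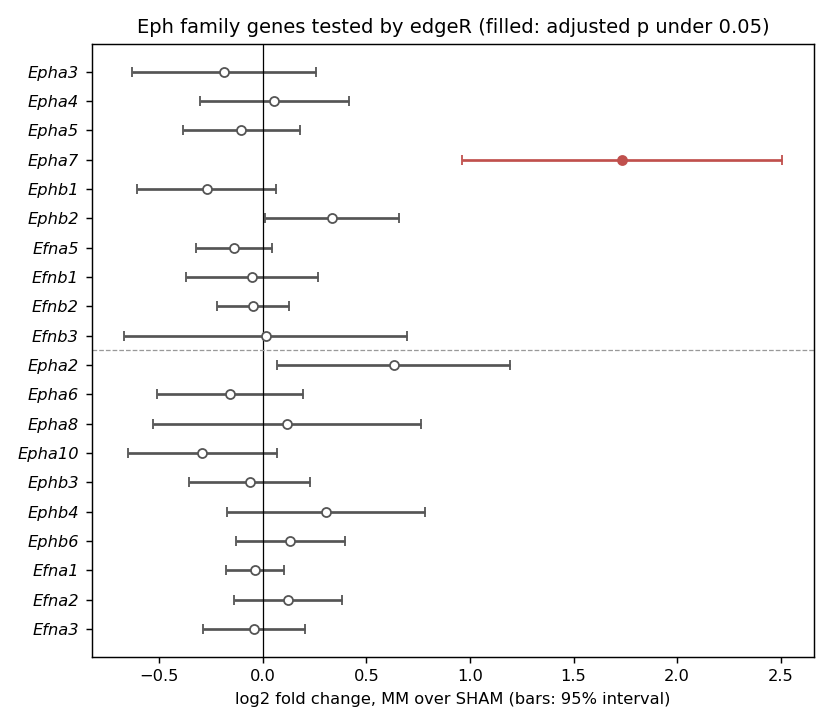
Log2 fold change of MM over SHAM with 95% intervals for the tested Eph and ephrin genes, the 10 members above the dashed line and the 10 other genes below it; the filled point passed the adjusted threshold. Only the interval of Epha7 (0.96 to 2.505) belongs to a gene that passed the adjusted threshold.

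Between genes, levels are compared as TPM, which divides by transcript length. In SHAM the order ran from Efnb1 (17.7 ± 3.83 TPM) and Efnb2 (17.4 ± 1.88) through Efna5 (11.5 ± 1.85) and Epha5 (6.35 ± 0.973) to Ephb2 (2.57 ± 0.453), Efnb3 (2.47 ± 1.19), Ephb1 (2.40 ± 0.62), Epha7 (2.29 ± 0.583), Epha4 (1.98 ± 0.47) and Epha3 (0.762 ± 0.286). Efnb1 and Efnb2 overlapped over libraries, as did the neighbours from Ephb2 to Epha4, and the other pairs of neighbours did not. Genes further apart in the order could overlap. In SHAM, Efnb1 began at 11.37 TPM and Efna5 reached 14.08. Efnb3 (1.06 to 5.145 TPM) overlapped both Epha5 (from 5.067) and Epha3 (up to 1.165). In MM, Epha7 stood at 6.22 ± 4.39 TPM (3.242 to 17.06), overlapping SHAM (1.539 to 3.392), and ranked 4 by its mean, against 8 in SHAM. That rank rested on MM9: without it Epha7 was at 4.86 ± 1.77 TPM and ranked 5, below Epha5 (5.74 ± 1.72 TPM). Without MM5, MM8 and MM9 it was at 4.01 ± 0.671 TPM and also ranked 5. Epha5 was the highest of the 6 receptors in all 9 SHAM libraries. Epha7 was the highest in MM3, MM5 and MM9 and the second in the other 6 MM libraries, while in SHAM it ranked from 2 to 5.

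Summed over receptors of the list, EphA levels were 14.2 ± 3.53 TPM in MM and 11.4 ± 1.12 TPM in SHAM, and Epha7 made up 41.1 ± 16.2% and 20.04 ± 4.15% of them. In MM9 Epha7 was 74.26% of the EphA TPM of the list, and the highest SHAM share was 26.76%. Without MM5, MM8 and MM9 the EphA sum in MM was 12.6 ± 1.21 TPM and the Epha7 share 32.05 ± 5.79% (24.28 to 41.71%). EphB sums of the list were 4.93 ± 1.05 TPM in MM and 4.97 ± 0.96 TPM in SHAM. Receptors outside the list are not in these sums or shares. Among them were Epha6 (7.97 ± 2.81 TPM in MM, 9.49 ± 2.24 in SHAM) and Ephb6 (26.2 ± 5.92 and 24.7 ± 3.77). The 3 ephrin-B genes summed to 35.1 ± 7.94 TPM in MM and 37.6 ± 6.26 TPM in SHAM.

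The reads of Epha4 switched from library to library between a pair of transcripts. These encode the same 986 codons, and their lengths differ by 13 bases. The annotation lists the longer as protein coding and the shorter as a target of nonsense-mediated decay. The shorter held most Epha4 reads in 12 libraries (6 MM, 6 SHAM) and the longer in 6 (3 and 3), so the split did not follow the groups. Efnb1, Efnb2 and Efna5 came almost wholly from 1 transcript each, and Efnb3 had 1 transcript.

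The rest of the family gave 0 calls among the 10 other genes tested, by edgeR and by DESeq2, and 1 of them was higher and 0 lower at an unadjusted p below 0.05 in edgeR. That gene was Epha2, an A-type receptor best known from epithelia and tumour cells, at 5.45 ± 3.10 CPM in MM against 3.52 ± 1.06 CPM in SHAM. Its log2 difference was 0.63 ± 0.27 (SE), with an adjusted p of 0.18 by edgeR, and MM5 held its highest value at 12.99 CPM. Among the other receptors, log2 differences were 0.30 for Ephb4 (known from veins), -0.29 for Epha10, -0.16 for Epha6, 0.13 for the kinase-inactive Ephb6, 0.12 for Epha8 and -0.06 for Ephb3. Among the other A-type ephrins they were -0.04 for Efna1, 0.12 for Efna2 and -0.04 for Efna3. Epha1 and Efna4 were too low to test, at no more than 0.326 and 0.6054 CPM in any library.

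Genes that carry Eph and ephrin signals inside the cell gave no edgeR call in 3 lists of 30 genes. Of 13 adaptors and kinases of forward signalling, 1 was higher and 1 lower at an unadjusted p below 0.05 in edgeR. Of 11 partners of ephrin-B reverse signalling the counts were 0 and 2, and of 6 proteases and phosphatases 1 and 0. DESeq2 called 3 of the 30, beside 7.61% of all genes: Fyn, a Src family kinase gene, and the phosphatase gene Ptpn1 were higher, and Rgs3, which binds ephrin-B tails, was lower. Fyn was at 119 ± 35.4 CPM in MM against 89.4 ± 4.95 CPM in SHAM (log2 difference 0.41, adjusted p 0.0856 by edgeR). Ptpn1 was at 49.7 ± 9.42 and 40.1 ± 3.11 CPM (0.31, adjusted p 0.07 by edgeR). Rgs3, at 230.9 ± 11.4 CPM in SHAM, had a log2 difference of -0.19 ± 0.06 (SE; adjusted p 0.0726 by edgeR). These 3 are named after their values were seen.

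Within each group some members moved together over libraries. Epha4 and Efnb1 had a Pearson r of 0.941 and a Spearman correlation of 0.95 in SHAM and 0.794 and 0.833 in MM. Epha4 and Efnb3 had r 0.889 and 0.796, and Efnb1 and Efnb3 0.887 and 0.851. With the 2 farthest libraries left out, r was 0.856 and 0.643, 0.625 and 0.659, and 0.699 and 0.886. Epha5 and Efna5 had r 0.683 in SHAM and 0.765 in MM, but 0.398 and -0.119 without those libraries, so that relation rests on them. In all, 45 pairs were computed over 9 libraries a group. They share dissection and RNA composition, and no p is given.

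The same members followed cell type lists. Efnb1 followed the Schwann cell list (r 0.832 in SHAM, 0.951 in MM), as did Epha4 (0.93 and 0.642), and Efnb3 followed the fibroblast list (0.892 and 0.864). Efna5 followed the sensory neuron list (0.73 and 0.94), as did Epha5 (0.906 and 0.766). Without the 2 farthest libraries of each group these r were 0.597 and 0.903 for Efnb1, 0.805 and 0.498 for Epha4, 0.642 and 0.551 for Efnb3, 0.726 and 0.739 for Efna5, and 0.695 and 0.213 for Epha5, whose relation in MM rests on those libraries. Such relations were not particular to 1 list. Efnb3 had r 0.892 in SHAM and 0.834 in MM with the Schwann cell list. With the fibroblast list Efnb1 had 0.883 and 0.745, and Epha4 0.96 and 0.568. Without the 2 farthest libraries these were 0.783 and 0.557, 0.688 and 0.728, and 0.884 and 0.0465. With the pericyte and smooth muscle list Efnb3 had r 0.77 and 0.898, and Ephb2 0.816 and 0.924. Efnb3 had 0.899 and 0.629 with the macrophage list. Without the 2 farthest libraries these 3 relations had r 0.654 and 0.714, 0.752 and 0.614, and 0.764 and 0.141. None of the 12 sensory neuron, 9 Schwann cell or 6 fibroblast markers passed between groups in edgeR. At an unadjusted p below 0.05 in edgeR the sensory neuron list had 1 gene lower, which DESeq2 called, and the Schwann cell and fibroblast lists had 0. Their median log2 differences, in that order, were -0.15, 0.19 and 0.24. The Schwann cell list was highest in MM5 (mean log2 CPM 9.62) and the sensory neuron list lowest there (8.91). Efnb1 and Efnb3 were highest and Epha5 and Efna5 lowest in the same library. The part of tissue make-up in these relations was not tested.

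**Figure D5:**
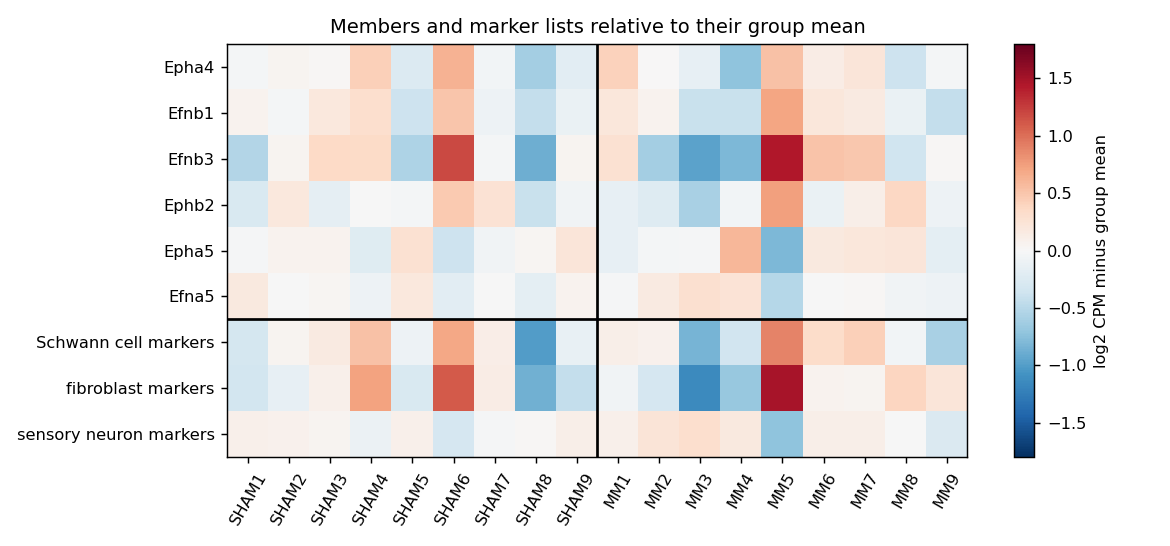
Deviation of 6 members (upper rows) and 3 marker lists (lower rows) from their group mean, on the log2 CPM scale, in each of the 18 libraries; red is above and blue below. In MM5 and SHAM6, Efnb1 and Efnb3 have the highest values of their group and Epha5 the lowest. For Efnb1, Efnb3 and Epha5, MM1 and SHAM4 deviate in the same directions by less. The lists in MM1 do not all follow MM5: its sensory neuron list (9.734) lies above the MM mean (9.64) and its fibroblast list (6.889) below (6.948).

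For the 8 members that reached 5 CPM on average in SHAM, the genes whose levels ran most nearly parallel in both groups were sought among 11545 genes, ranked by the smaller of the r in SHAM and in MM. The closest to Epha7 were Pitrm1, a mitochondrial protease gene (0.922 and 0.958), and Tcf19 (0.877 and 0.923). Tcf19 rose as well, with a log2 fold change of 0.67 and an adjusted p of 0.0348 by edgeR. Those of Epha4 were Foxc2, a forkhead factor gene (0.992 and 0.957), and Slc22a8, an organic anion transporter gene (0.934 and 0.964), and those of Efnb1 were Rarg, a retinoic acid receptor gene (0.953 and 0.946), and Klf3 (0.975 and 0.944). Epha5 ran with Ncam2, an adhesion molecule gene (0.924 and 0.937), and Nrip1 (0.934 and 0.92). Efna5 ran with Trpm2, an ion channel gene (0.953 and 0.933), and Trappc2 (0.926 and 0.974). Ephb2 ran with Mettl9 (0.92 and 0.894) and Prrg4 (0.892 and 0.879), Efnb2 with Ahcyl2 (0.843 and 0.89) and Podxl2 (0.861 and 0.806), and Ephb1, the loosest, with Pdxdc1 (0.804 and 0.832) and C1ql3 (0.787 and 0.83). Each r is the highest of many over 9 libraries and is given as a description.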

How the data were processed

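RNA of lumbar ganglia was sequenced from 9 MM and 9 SHAM mice. Per the submitters' processing notes, the authors quantified reads with Salmon 1.5.2, used the GRCm39 build and normalized with DESeq2 (no version given). The deposited files hold an estimated count, a TPM value and an effective length per transcript, and the authors' table holds a normalized signal per gene, used in 1 alternative with a pseudocount of 1.

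Estimated counts were summed per gene through GENCODE M21 transcript links and rounded. Of 137562 transcripts 3620 had no link (0.85% to 1.34% of reads). That annotation is of an older build, so no genome positions are given. The deposited table lists 17787 genes, and 17756 of them were linked. After scaling, the Epha7 sums lay from -48.7% to 25.2% off the deposited values over libraries, the widest span of the members. The 15774 genes passing filterByExpr entered edgeR 4.0.16 (R 4.3.3) with TMM scaling, group as the only term and its quasi-likelihood test with robust estimation (standard errors are the log2 change over the square root of F, and 95% intervals use the fit's 18.55 degrees of freedom; common biological coefficient of variation 0.258, prior count 2). Adjusted p are Benjamini-Hochberg over all genes tested. Transcript use was tested with edgeR's diffSpliceDGE method. On simulated data of 14556 genes for this comparison, 44%, 84%, 94% and 100% of genes changed 1.25-, 1.5-, 2- and 4-fold were recovered, with 5 false among 166 calls. Recovery at the spread of the MM libraries was not tested. The SD of CPM as a percent of the mean was 91.4 in MM and 15.8 in SHAM for Epha7. It was 25.0 and 13.6 for Epha5 and 15.5 and 7.96 for Efnb2. For Epha3 (30.6 and 35.9) and Epha4 (25.6 and 26.5) it was lower in MM. Alternatives were DESeq2 1.42.0, limma 3.58.1, other scaling, filters and length offsets, left-out libraries and a replicate block. A non-robust edgeR fit and an exact permutation test over all genes were added after seeing the data, as were Epha7 and EphA levels without MM9 or without MM5, MM8 and MM9. Python 3.11.15 with scipy 1.17.1 and matplotlib 3.10.9 was used for exact tests and plots.

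The members, lists and libraries left out were chosen with earlier results of these data known. Named genes were all family members, Ighg2b, pathway genes past the threshold (at most 2 a direction) and, for members at 5 CPM or more in SHAM, the 2 genes most alike in both groups; Fyn, Ptpn1 and Rgs3 are exceptions. Another list of signalling genes is not reported here.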

Additional observations from a re-analysis of the deposited data

Results flagged for a closer look

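Among 44 groups of 9 libraries (22 family genes in MM and in SHAM), 7 held a library whose gap to its nearest neighbour exceeded 0.493 of the group's range. For independent, normally distributed values chance gives about 1 in 20 groups. The genes here share libraries and CPM need not be normal, so 7 of 44 cannot be set against that rate. In MM, Epha7 was at 61.3 CPM in MM9, with the next library at 31.7 CPM. MM5 was the highest for Efnb1 (47.6 CPM, next 33.7), Efnb3 (10.3 CPM, next 5.39), Epha2 (13.0 CPM, next 6.56) and the low Epha1 (0.326 CPM, next 0.147). In SHAM, SHAM6 was the highest for Efnb3 (9.01 CPM, next 5.02) and the lowest for Epha6 (9.96 CPM, next 15.2).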

How the results depend on the processing

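Epha7 kept its direction in every alternative run. Its log2 fold change was 1.31 with limma on the deposited table, 1.57 with length offsets and from 1.72 to 1.73 with DESeq2, DESeq2 size factors, no filter or no robust estimation, all called. In edgeR it was not called without SHAM7 and SHAM8 (1.63, adjusted p 0.108) or without SHAM5 and SHAM9 (1.81, adjusted p 0.0902). Nor was it called with the replicate block (1.36, adjusted p 0.182) or without any of 5 single libraries (range 1.28 to 1.83 over 18 omissions). Fewer samples or residual degrees of freedom enter those fits, but also omissions that kept the call, and the cause was not tested. In the fits without the call, members called higher were 0, and over single omissions 0 to 1. Same-numbered libraries correlated between -0.32 and 0.263 over genes, after group means were taken out. The labels name no pairing, and these values cannot settle whether same-numbered libraries share a batch. The block left 7 genes higher and 1 lower.

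Against 433 genes called higher, the count was 53 when MM5, MM8 and MM9 were left out, 29 without SHAM7 and SHAM8, 19 without SHAM5 and SHAM9, 945 with DESeq2, 193 with limma, 282 with the exact permutation test and 75 to 891 over single omissions. Against 38 lower, it was 7, 6, 5 and 256 in the first 4 of these, 61 with the permutation test, 20 with no filter, 67 with length offsets and 9 to 139 over single omissions.

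Of the 9 members not called, Epha3, Ephb1, Ephb2 and Efna5 kept their sign in the alternatives run and 5 changed it. Epha4 was at -0.0469 with length offsets, -0.0345 without SHAM7 and SHAM8, -0.0153 without SHAM5 and SHAM9, -0.0724 with limma and -0.0187 to 0.151 over single omissions. Without MM5, MM8 and MM9, Epha5 was at 0.00115, Efnb2 at 0.0257 and Efnb3 at -0.244. Efnb3 was at -0.07 with the block, -0.113 without SHAM7 and SHAM8, -0.0778 without SHAM5 and SHAM9, -0.0603 with limma, -0.0571 in the permutation test and -0.266 to 0.231 over omissions, where Efnb2 ran from -0.0746 to 0.00423 and Efnb1 from -0.161 to 0.0182.

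Genes called for transcript use numbered 51 in the main fit and 154 at a minimum of 10 counts. They numbered 20 without MM5, MM8 and MM9 and 29 to 74 over single omissions. The adjusted p of Epha7 in that edgeR test ran from 0.0396 to 0.224 over single omissions. It was 0.507 at the minimum of 10 counts and 0.203 with the replicate block. Epha3 had the fewest reads of the members, 38.2 per MM library and 42.1 per SHAM library on average.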
